A study of Homo sapiens with 4 samples.

Results

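The promoters of 29 small nucleolar RNA (snoRNA) host genes were examined for DNA methylation gained in cells that expressed an epigenome editor. Members were chosen by symbol as the genes of GENCODE release 44, lifted to hg19, that are named SNHG plus a number (28 genes), together with GAS5. All 29 are annotated as lncRNA genes, lie on 15 autosomes and were taken from 38583 promoters of 19881 protein-coding and 18702 lncRNA genes. A promoter was the canonical start site with 1000 bp on each side. MBD-seq, in which sheared genomic DNA is pulled down with GST-tagged MBD2 so that methylated fragments are enriched and sequenced, was carried out with 1 library for each of 4 conditions of HEK293, a human embryonic kidney cell line. Untreated cells were compared with cells transiently transfected with dCas9 carrying 10 SunTag repeats, an sgRNA against the promoter of ISG15, and Ab-3A3L, an antibody fragment that binds the SunTag, joined to the DNMT3A catalytic domain and the C-terminal part of DNMT3L. The DNMT3A part was wild type (WT) or carried K844E or R887E, changes designed to weaken DNA binding, and cells holding every plasmid were sorted 3 days after transfection. Only the list of peaks gained in the WT cells over untreated cells was analysed here, and the mutant libraries were not used. No spread between replicates exists for any value.

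SnoRNAs are short nucleolar RNAs that guide chemical modification of ribosomal RNA, box C/D snoRNAs (SNORD) for methylation of the ribose and box H/ACA snoRNAs (SNORA) for pseudouridylation, while the related SCARNAs act in Cajal bodies on spliceosomal RNA. In human cells most of them are cut out of introns of host genes, and SNHG genes and GAS5 are hosts whose spliced RNA is classed as non-coding and is in several cases degraded by nonsense-mediated decay. Several host genes are transcribed from CpG island promoters that start within a run of pyrimidines, the terminal oligopyrimidine (TOP) start that is best known from ribosomal protein genes. DNMT3A methylates the cytosine of CpG, so the CpG number of a promoter bounds how much methylation it can take up and how strongly MBD2 can retain it.

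The sequence around the start site is shown for 5 members that differ in CpG number and outcome. Capitals mark CpGs, and each sequence is read 5′ to 3′ on the strand of the gene from hg19. SNHG5 (chr6:86388452-86388716, minus strand, 37 CpGs in 265 bases) lies whole within the peak with the highest fold. SNHG16 (chr17:74553607-74553906, plus strand, 24 CpGs) lies in the gap between the 2 peaks of its promoter. SNHG27 (chr4:132648492-132648791, plus strand, 33 CpGs) and GAS5 (chr1:173837078-173837219, minus strand, 11 CpGs in 142 bases) had CpG-rich promoters without a new peak. SNHG14 (chr15:25438210-25438509, plus strand, 7 CpGs) had the CpG-poorest promoter window of all members and no new peak. It has 111 annotated start sites, and this window was taken at the canonical one. The windows run up to 250 bases before the start site, and those of SNHG5 and GAS5 were shortened to leave out exons of coding genes.
SNHG5: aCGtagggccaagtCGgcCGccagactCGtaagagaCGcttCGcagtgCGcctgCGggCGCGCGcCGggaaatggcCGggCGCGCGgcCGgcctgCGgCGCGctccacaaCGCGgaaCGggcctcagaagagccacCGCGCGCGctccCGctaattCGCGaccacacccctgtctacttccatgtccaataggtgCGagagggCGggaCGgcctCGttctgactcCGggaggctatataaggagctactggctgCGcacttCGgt
SNHG16: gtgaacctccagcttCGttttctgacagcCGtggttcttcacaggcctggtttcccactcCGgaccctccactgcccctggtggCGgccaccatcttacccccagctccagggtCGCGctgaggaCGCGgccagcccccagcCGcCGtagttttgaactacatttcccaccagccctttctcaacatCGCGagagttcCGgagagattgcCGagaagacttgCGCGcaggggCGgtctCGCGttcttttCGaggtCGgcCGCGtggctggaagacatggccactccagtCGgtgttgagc
SNHG27: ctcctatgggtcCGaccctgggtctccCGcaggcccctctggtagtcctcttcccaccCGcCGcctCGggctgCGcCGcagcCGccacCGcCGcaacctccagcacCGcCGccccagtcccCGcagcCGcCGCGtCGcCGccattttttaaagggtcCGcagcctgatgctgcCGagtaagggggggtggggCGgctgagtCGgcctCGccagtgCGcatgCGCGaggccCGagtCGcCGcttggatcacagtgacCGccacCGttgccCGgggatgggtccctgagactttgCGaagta
GAS5: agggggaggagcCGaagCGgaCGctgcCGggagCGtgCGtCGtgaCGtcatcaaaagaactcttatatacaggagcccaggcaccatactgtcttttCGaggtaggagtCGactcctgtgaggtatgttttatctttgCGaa
SNHG14: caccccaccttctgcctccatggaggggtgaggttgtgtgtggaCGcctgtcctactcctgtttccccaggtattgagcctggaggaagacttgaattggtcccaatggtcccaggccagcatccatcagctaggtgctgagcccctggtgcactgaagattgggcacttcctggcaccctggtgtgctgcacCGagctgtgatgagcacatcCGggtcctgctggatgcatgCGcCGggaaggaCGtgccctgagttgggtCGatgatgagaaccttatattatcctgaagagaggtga

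A new peak overlapped the promoter of 16 of the 29 host genes, 55.2% (95% exact binomial interval 35.7% to 73.6%, which covers counting error only). These were SNHG4, SNHG5, SNHG6, SNHG7, SNHG9, SNHG10, SNHG12, SNHG15, SNHG16, SNHG17, SNHG19, SNHG22, SNHG25, SNHG26, SNHG28 and SNHG31. The 13 host genes without a new peak were GAS5, SNHG1, SNHG3, SNHG8, SNHG11, SNHG14, SNHG18, SNHG20, SNHG21, SNHG27, SNHG29, SNHG30 and SNHG32. Of the 38554 other promoters 28.5% overlapped a new peak, 42.1% of the coding and 14.1% of the lncRNA promoters. The host genes had more CpGs than most promoters, with a median of 104 (range 37 to 172) in the promoter window against 62 for the others. Other promoters of a like CpG number, taken in 10 classes and weighted as the members fall into them, overlapped a new peak in 52.5%. The host genes exceeded that share by 2.69 percentage points, and 52.5% lies well within the interval of their own share.

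**Figure D1:**
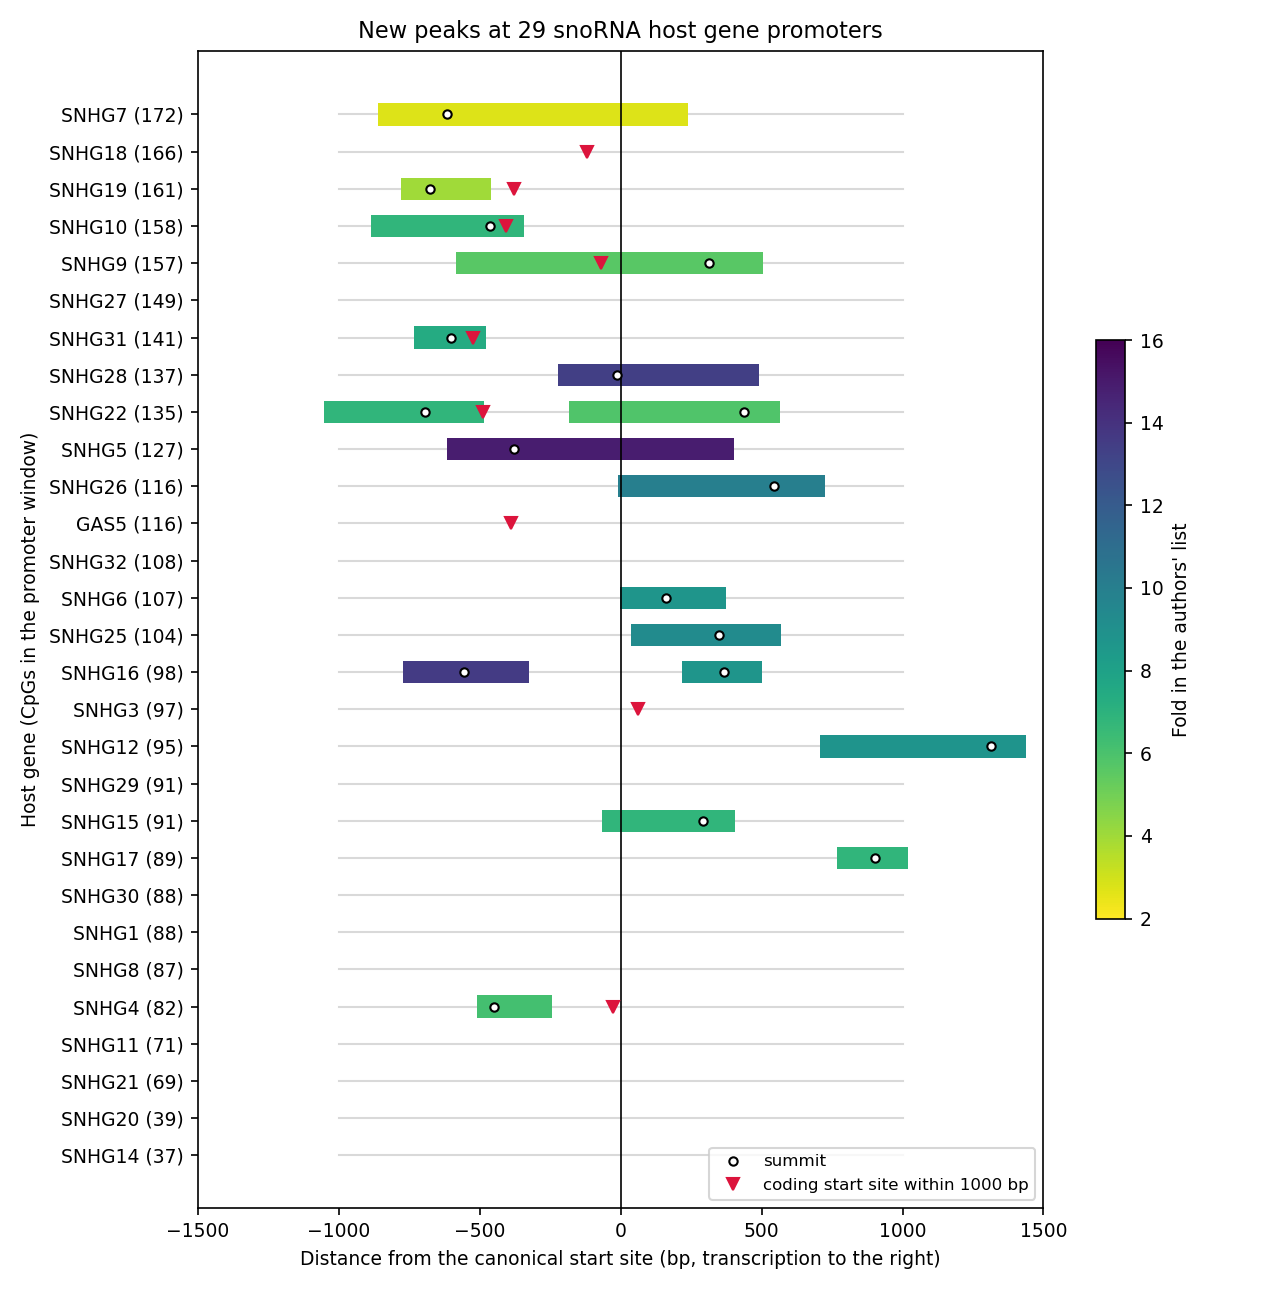
New peaks (bars, coloured by the authors' fold) along the promoter windows (grey lines) of the 29 host genes, with distance from the canonical start site in bp on the horizontal axis and genes ordered by CpG number, given in brackets. White points mark summits and red triangles canonical coding start sites within 1000 bp. Of the genes, 14 carried 1 peak, SNHG16 and SNHG22 carried 2, and the 4 with the fewest CpGs carried none.

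Along the scale of CpG number the host genes followed the other promoters. Of the 15 members with at least 100 CpGs, 11 had a new peak (73.3%, against 69.9% of the other promoters), and of the 14 with fewer, 5 had one (35.7%, against 9.10%). The last contrast is not at a like CpG number, since 9 of those 14 fell in the class of 84 to 103 CpGs. In that class 4 of 9 members had a peak, SNHG12, SNHG15, SNHG16 and SNHG17, against 43.1% of the other promoters. SNHG14 (37 CpGs) and SNHG20 (39 CpGs), neither with a peak, fell in a class in which 0.991% of the other promoters had one. With 62 to 83 CpGs, where the other promoters reached 21.8%, SNHG4 had a peak and SNHG11 and SNHG21 had none. In the class of 104 to 125 CpGs the members with a peak were SNHG6, SNHG25 and SNHG26, 3 of 5 against 62.1% of the other promoters. The 2 richest classes held 4 of 5 members with a peak each. These were SNHG5, SNHG22, SNHG28 and SNHG31 at 126 to 153 CpGs, where the others reached 72.4%, and SNHG7, SNHG9, SNHG10 and SNHG19 from 154 CpGs on, where they reached 78.9%. Members with a peak had a median of 122 CpGs and those without 88, and the observed/expected CpG ratio, which corrects for base composition, had medians of 0.759 and 0.691. The groups overlapped, from 82 CpGs in SNHG4, the lowest with a peak, to 166 in SNHG18, the highest without.

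In the deposited list the fold compares the fragments at the summit of a peak with a local background, and both numbers were recovered from the listed fold and p-value. Across the 16 members the highest fold of each promoter had a median of 7.14, with quartiles of 6.67 and 9.49, and ran from 2.73 to 14.9. Over the other promoters with a peak the median fold was 8.27 (quartiles 6.21 and 11.2), so that the median member stood at the 36.2 percentile. A median of 15 fragments (range 9 to 70) lay at the member summits, against 17 at the other promoters. At 9 of the 16 member promoters (56.3%) the background was the genome-wide rate of 0.611 fragments, the lowest the list holds, against 35.0% of the other promoters. Of the member peaks, 4 share 10 fragments over the genome-wide rate and with it the same fold of 6.83.

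SNHG5, the host of the box C/D snoRNAs SNORD50A and SNORD50B, had the highest fold. Its peak at chr6:86388065-86389083 covered the start site, from 617 bp upstream to 401 bp downstream, and held 98 CpGs. The summit, 379 bp upstream, had 23 fragments over the genome-wide rate, and its fold was 14.9. The −log10 q, which rises with the confidence of the call, was 24.7. SNHG16, which carries SNORD1A, SNORD1B and SNORD1C, had a pair of peaks that left the start site uncovered. The upstream peak (chr17:74553084-74553531, summit 556 bp upstream) reached a fold of 13.6 with 22 fragments but held only 24 CpGs. The downstream peak (chr17:74554073-74554357, summit 366 bp downstream) reached a fold of 8.69 with 13 fragments and 23 CpGs. The sequence of SNHG16 shown above holds at least as many CpGs as either of them. SNHG28 had the third highest fold, 13.4, from 31 fragments over a rate of 1.39. Its summit, 14 bp upstream of the start site in a peak at chr1:159824373-159825083, was the closest to a start site of all.

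SNHG26, SNHG25, SNHG12 and SNHG6 followed with peaks that began near the start site or further into the gene. SNHG26, host of SNORD93, had a fold of 10.04 with 16 fragments in a peak from 11 bp upstream to 724 bp downstream (chr7:22893767-22894502, 69 CpGs). SNHG25, host of SNORD104, had a fold of 9.31 with 14 fragments, and its peak (chr17:62223335-62223866, 47 CpGs) began 38 bp downstream of the start site. At SNHG12, which holds SNORA16A, SNORA44, SNORA61 and SNORD99, a fold of 8.77 with 17 fragments was listed. Its peak began only 706 bp downstream (chr1:28908062-28908792, 76 CpGs), and the summit at 1313 bp was the 1 member summit outside the promoter window. SNHG6, host of SNORD87, had a fold of 8.69 with 13 fragments in a peak of 38 CpGs from 2 bp upstream to 372 bp downstream of the start site.

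SNHG31 and SNHG10 had peaks upstream of their own start sites, over those of divergent coding genes. At SNHG31, host of SNORA70I, 11 fragments gave a fold of 7.45 at chr2:215674201-215674453 (33 CpGs), a peak that covered the start site of BARD1, a partner of BRCA1. At SNHG10, host of SCARNA13, 10 fragments gave a fold of 6.83 at chr14:96001325-96001866 (72 CpGs), over the start site of GLRX5, a protein of iron-sulfur cluster assembly. The other members at that fold were SNHG15, SNHG17 and the stronger of the SNHG22 peaks. SNHG4 (6.21), SNHG9 (5.65), SNHG19 (4.004) and SNHG7 (2.73) had the lowest folds.

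The 3 lowest folds were listed over high backgrounds. SNHG7, host of SNORA17A and SNORA17B and the CpG-richest member, had the most fragments of all members, 70, but over a rate of 24.98. That rate was above the rate of 99.8% of the other promoters with a peak, and the −log10 q of 10.1 was close to the list median of 10.1. SNHG19 and SNHG9 each had 21 fragments, over rates of 4.49 and 2.90. Fold and fragment number therefore order these promoters differently, and neither measures the percentage of methylated CpGs.

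**Figure D2:**
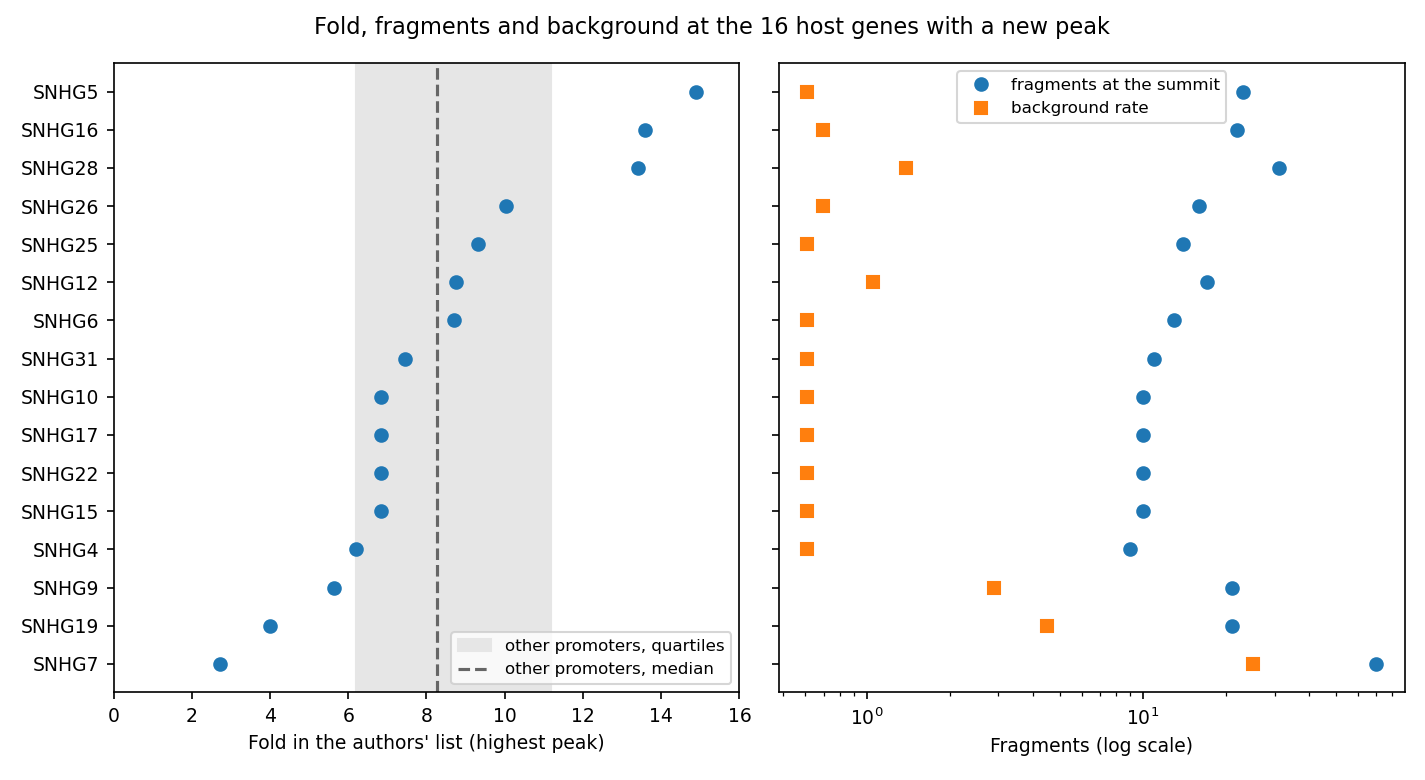
Left, the authors' fold of the strongest peak at each of the 16 host genes, beside the median (dashed line) and quartiles (grey band) of the other promoters with a peak; right, fragments at the summit (blue circles) and background rate (orange squares) on a log scale. Folds run from 2.73 at SNHG7, with 70 fragments over a rate of 24.98, to 14.9 at SNHG5, with 23 fragments over 0.611.

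Among the host genes without a new peak, GAS5 carries 10 box C/D snoRNAs in the RefSeq table, among them SNORD44, SNORD47 and SNORD74 to SNORD81, and SNORA103. The GAS5 promoter had 116 CpGs, as many as that of SNHG26, and the nearest new peak lay 152635 bp downstream. SNHG1, which carries SNORD22 and SNORD25 to SNORD31, had 88 CpGs and its nearest new peak 14013 bp downstream. SNHG18 (166 CpGs) was the only 1 of these 13 whose nearest new peak lay within 5000 bp, 1242 bp upstream of the start site with a fold of 4.55. SNHG27 (149 CpGs) lay 1422935 bp from its nearest new peak and was the 1 member in which the RefSeq table places no snoRNA gene. The lifted annotation places a SNORA70 gene in it. SNHG32 had 108 CpGs, SNHG3 97, SNHG29 91, SNHG30 88, SNHG8 87, SNHG11 71, SNHG21 69, SNHG20 39 and SNHG14 37. SNHG14, the large imprinted host of the SNORD115 and SNORD116 arrays, held 84 of the 146 snoRNA genes of the members. The list holds gains only, and gives no methylation level for a promoter without a peak, before or after transfection.

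The new peaks of the host genes lay on both sides of the start site, and in many promoters they left the start site itself uncovered. The start site was inside a peak in 8 of 16 members, SNHG5, SNHG6, SNHG7, SNHG9, SNHG15, SNHG22, SNHG26 and SNHG28, and in 60.6% of the other promoters with a peak. All members are lncRNA genes, and the other promoters with a peak are mostly coding, so the other lncRNA promoters are given beside them. Their start site was inside a peak in 48.6%, close to the members, and that of coding promoters in 64.4%. Peaks covered a median of 26.8% of the window (range 11.7% to 63.3%) in the members, 31.2% in all others and 30.04% in other lncRNA promoters. The summit of the strongest peak was downstream of the start in 7 of 16 members (43.8%), 64.0% of all others and 43.1% of other lncRNA promoters. Its median distance from the start was 505 bp in the members, 306 bp in all others and 414 bp in other lncRNA promoters. Counted over all 18 peaks, 9 member summits lay on either side of the start site. From 600 to 401 bp upstream a mean of 45.9% of the 16 members was under a peak, against 24.6% of all other and 39.8% of other lncRNA promoters. In the 200 bp before the start site it was 33.3%, against 51.3% and 48.3%. In the 200 bp from the start site on it was 55.1%, against 64.5% and 46.0%. From 200 to 399 bp downstream it was highest, 56.1%, against 59.6% and 37.4%. Further into the gene, in the 200 bp from 600 bp downstream on, it was 7.91%, against 25.9% and 20.01%. The member shares rest on 16 promoters, and no difference in position was tested.

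**Figure D3:**
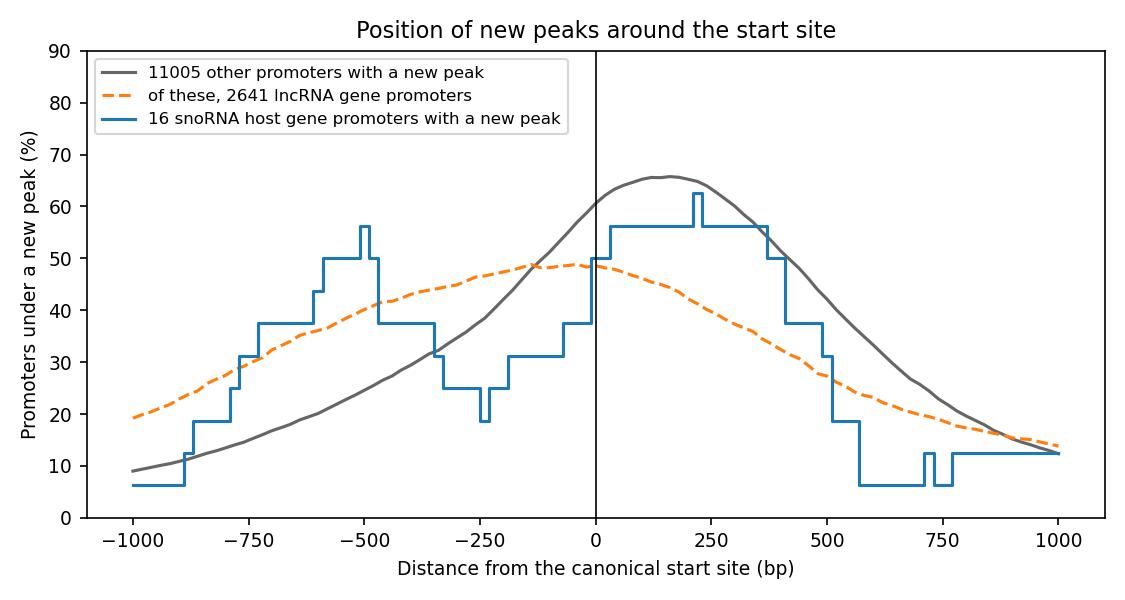
Share of promoters with a new peak that were under a peak (%, vertical axis) at each distance from the canonical start site in bp (horizontal axis, transcription to the right), for the 16 host genes (blue), the 11005 other promoters (grey) and the 2641 lncRNA promoters among these (orange, dashed). From 600 to 401 bp upstream the means were 45.9% for the host genes, 24.6% for all other promoters and 39.8% for the lncRNA promoters. From 200 to 399 bp downstream, where the host genes were highest, the means were 56.1%, 59.6% and 37.4%.

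The upstream peaks fell in part on divergent coding genes. The canonical start site of a coding gene lay within 1000 bp of 9 members. Of these 6 had a new peak, against 65.3% of the other promoters of a like CpG number. The peak covered the neighbour's start site in 4 of the 6, at SNHG31 (BARD1), SNHG10 (GLRX5), SNHG22 (ACAA2, a mitochondrial thiolase) and SNHG9 (RPS2, a protein of the small ribosomal subunit). It did not at SNHG19 (TRAF7) and SNHG4, whose start site lay 27 bp downstream of that of MATR3 on the same strand. GAS5 with ZBTB37, SNHG3 with RCC1 and SNHG18 with SEMA5A had a coding neighbour and no peak. Of the 20 members without such a neighbour 10 had a peak, against 46.7% at a like CpG number. Other starts and exons of coding genes were not counted as neighbours. Among these 20, exons of coding genes lay within 250 bp of the start sites of SNHG1, SNHG5 and SNHG28. The median fold was 6.52 over the 6 members with a neighbour and 9.04 over the 10 without, and the 7 members with the highest folds all belonged to the latter. The list cannot assign a peak to either of 2 promoters that share a window.

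Peak width and CpG content in the members were near those of the list. The 18 member peaks had a median width of 537 bp (253 to 1101) against 498 bp, and 9.87 CpGs per 100 bp (4.35 to 14.5) against 10. SNHG17, a host of 4 SNORA71 genes, had the CpG-poorest peak, with 11 CpGs in 253 bp at its downstream edge (chr20:37063006-37063258). The members were also counted by the kind of snoRNA gene inside them. Of 14 members with SNORD genes 7 had a new peak, of 11 with SNORA genes 7, and of 4 with SCARNA genes 2, where 2 members hold both SNORD and SNORA genes. SNHG28, which had a peak, and SNHG27, which had none, are in none of these counts. The RefSeq table places only LOC124900450, which has none of these symbols, in SNHG28, and no snoRNA gene in SNHG27. Over all members the share was 55.2%, and over all other promoters 28.5%. No share at a like CpG number was computed for each kind, so these counts do not say whether the kinds differ.

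TOP starts were looked for as a C at the canonical start site followed by 4 pyrimidines, on the strand of the gene. In the members they were found at GAS5, SNHG12 and SNHG29, 3 of 29 (10.3%), against 3.71% of the other promoters and 60 of 87 cytosolic ribosomal protein genes (69.0%). The 30 bases around the starts of GAS5 and SNHG29 are shown with the first 5 transcribed bases in capitals, at chr1:173837108-173837137 on the minus strand for GAS5 and at chr17:16342341-16342370 on the plus strand for SNHG29.
GAS5: accatactgtCTTTTcgaggtaggagtcga
SNHG29: aaggtgtgacCTTTTcattcccgttgttat
Of the members with a TOP start, SNHG12 had a new peak, which began 706 bp downstream of its start site, and GAS5 and SNHG29 had none. Other annotated starts of the members were not searched for this motif.

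Ribosomal protein genes, whose products snoRNA-modified ribosomal RNA joins in the ribosome, carried new peaks in a smaller share than the snoRNA host genes. A new peak overlapped 14 of 87 of their promoters, 16.1% (95% exact binomial interval 9.09% to 25.5%), where promoters of a like CpG number had 48.8%. The median CpG numbers of the host genes and the ribosomal protein genes were 104 and 102, and the difference between their shares was not tested. Of the 60 ribosomal protein promoters with a TOP start 11 had a peak (18.3%), against 49.2% at a like CpG number. Of the 27 without a TOP start 3 had one, and their share at a like CpG number was not computed. SNHG9 and RPS2 share 1 peak, which counts in both groups. With at least 100 CpGs, 14 of 46 ribosomal protein promoters had a new peak (30.4%), and 11 of 15 host gene promoters. Where a peak was present, the median fold was 7.40 in the ribosomal protein genes and 7.14 in the host genes.

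Genes of snoRNP structure, snoRNP assembly and nonsense-mediated decay were counted in 3 lists. Of the 8 proteins of mature snoRNPs, 3 had a new peak, against 53.3% at a like CpG number. These were NOP56 (fold 13.0) and FBL (7.45), the core protein and the methyltransferase of box C/D snoRNPs, and SNU13 (5.95), which binds their kink-turn. NOP58 (100 CpGs) and the H/ACA proteins DKC1 (126), NHP2 (123), NOP10 (87) and GAR1 (81) had none. Of 12 assembly and transport factors 4 had a peak, against 47.8%, with TGS1 (10.6), PHAX (8.01) and NAF1 (6.83) ahead of TCOF1. SHQ1 (111 CpGs), ZNHIT3 (102), RUVBL2 (98), NUFIP1 (88), RUVBL1 (86), PIH1D1 (86), NOLC1 (84) and ZNHIT6 (55) had none. Of 10 genes of nonsense-mediated decay, the pathway that degrades several spliced host RNAs, 7 had a peak, against 58.8%. Those with a peak included UPF1 (fold 9.31) and UPF3A (7.45), and UPF3B (78 CpGs), SMG5 (77) and SMG8 (74) had no peak. The 3 lists together had 14 of 30 promoters with a new peak (46.7%), against 52.9% at a like CpG number and 55.2% of the host genes.

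Other genes that hold snoRNA genes had shares at or somewhat above those of promoters of a like CpG number. RefSeq hosts were assigned by position alone, so a gene on the strand opposite to a snoRNA gene counts as a host. By this rule 293 of 543 coding genes outside the members had a new peak (54.0%, interval 49.7% to 58.2%), against 50.9%. These include ribosomal protein genes, and without them 287 of 514 had a peak (55.8%, interval 51.4% to 60.2%), against 50.8%, a comparison added after the data were seen. TARS3 (fold 37.2), PLEKHA7 (22.4), PACS1 (21.1), MPP7 (20.5) and DENND4A (19.9) had the highest folds among these coding hosts. Of 48 other lncRNA hosts 13 had a peak (27.1%), against 22.7%, among them DANCR (fold 11.2) and ZFAS1 (10.1). By the lifted annotation, which holds only part of the snoRNA genes, hosts were matched on the same strand. Of these coding hosts 214 of 423 had a new peak (50.6%), against 49.7%. Of all 516 other hosts by this annotation 244 had a peak (47.3%), against 45.6%. The highest folds among these were at PACS1, DENND4A, FOXK2 (16.8) and the unnamed lncRNA gene ENSG00000263657 (16.1), followed by SPEN, DYRK3, ABTB3, COL4A2 and NSD2 with the same fold of 15.5, all above the highest member fold of 14.9 at SNHG5.

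**Figure D4:**
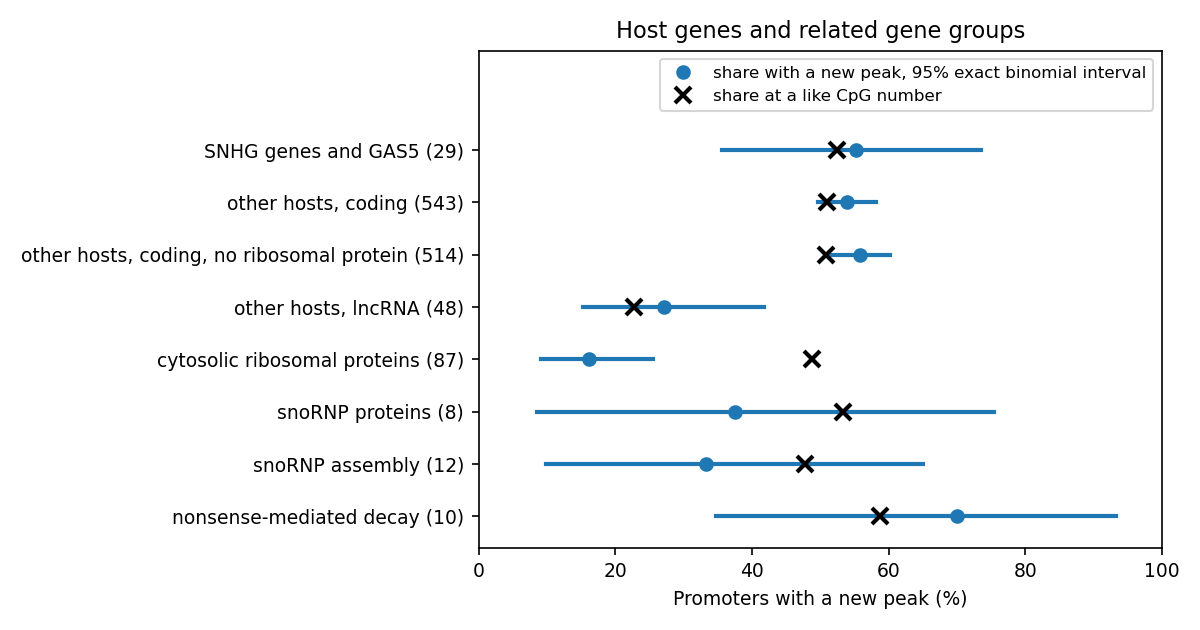
Share of promoters with a new peak (%, blue points, with 95% exact binomial intervals as bars) and share of other promoters of a like CpG number (crosses) for the 29 SNHG genes and GAS5 and for related gene groups, with the number of promoters in brackets. The cross lies inside the bar for the host genes (55.2% and 52.5%) and above it for the cytosolic ribosomal protein genes (16.1% and 48.8%). It lies just below the bar for coding hosts from RefSeq, on either strand, without ribosomal protein genes (55.8% and 50.8%).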

How the data were processed

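DNA of HEK293 cells in 4 conditions was measured by MBD-seq with 1 library per condition. The deposited list of peaks gained in the wild type cells was used. The other 3 libraries were not analysed here. Per the labels, the submitters' processing notes name FastQC, Bowtie2, deepTools and MACS2 and the build hg19. Versions and peak calling settings were not given in the sources used here. The deposited list holds 12864 peaks, 12795 of them on chromosomes 1 to 22, X and Y. For each peak the authors give a score that follows the −log10 q, a fold (a ratio to a background at the summit), the −log10 p-value, the −log10 q-value, and the distance of the summit from the peak start. The score was not used. The smallest −log10 q was 2.00.

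Promoters were taken from GENCODE release 44 lifted to hg19, with the canonical transcript of each gene. An overlap of at least 1 bp was counted. CpGs were counted in hg19 over the whole window, and promoters outside the members were cut into 10 classes of CpG number. SnoRNA genes inside members and the RefSeq hosts came from the RefSeq table of another build, used for names and neighbours only and without strand. Fragments k and the background rate were recovered from a fold of (k + 1)/(rate + 1) and a p-value given by the Poisson chance of exceeding k. The largest miss of the listed −log10 p was 0.000403, and the second best whole number missed by a median of 0.261. The list has a median of 18 fragments at the summit, which together with the single library limits the precision. Shares have 95% exact (Clopper-Pearson) intervals that cover counting error only.

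Members and gene lists were chosen with earlier results of these data known, so no test was made over them and no p-value was computed. Full values are given for the 10 members with the highest fold, GAS5 and SNHG1. In the pathway lists the 3 genes with the highest fold and those without a peak are named, and among other hosts the 5 with the highest fold. A gene of the decay list and a sequence that these rules would show are not reported here. Other genes named with a value, such as SNHG7, SNHG18, DANCR, ZFAS1 and the coding hosts from RefSeq, were chosen after their values were seen. Alternatives covered the peak threshold, the window, the overlap, the start sites, the members, the classes and the background genes. The steps were tested on simulated data. Python 3.11.15 was used with numpy 2.4.6, pandas 2.3.3, scipy 1.17.1 and matplotlib 3.10.9.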

Additional observations from a re-analysis of the deposited data

How the results depend on the processing

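Of 48 values recomputed under other settings, 41 stayed within the limits set. These were 1.5 times for counts and medians and 18.9 percentage points for the difference in share. The latter limit comes from the width of the members' binomial interval. Every alternative difference fell within it, also those below 0, so this limit says little about stability. The number of host genes with a new peak was 8 with peaks of at least the median fold and 8 with a −log10 q of at least 10. It was 10 of the 20 without a canonical coding start site within 1000 bp. The first of these removed SNHG4, SNHG7, SNHG9, SNHG10, SNHG15, SNHG17, SNHG19 and SNHG22, and the second SNHG31 in place of SNHG7. Peaks of at least the median fold left 4 members with the start site in a peak, 7 pathway genes and 7 ribosomal protein genes. Windows of 500 bp on each side raised the median covered share to 46.6%. Each of these settings removes peaks, genes or bases, and the cause of the shifts was not tested. Windows of 500 bp lost SNHG12 and SNHG17, and windows of 2000 bp gained SNHG18. The difference between the host genes and promoters of a like CpG number ran from -4.64 to 8.16 percentage points, and was below 0 with peaks of at least the median fold (-4.64), with a −log10 q of at least 10 (-3.22) and with classes of the observed/expected ratio in place of the CpG number (-1.50). No direction of this difference can therefore be stated. Members and hosts taken from the RefSeq table were an alternative chosen after seeing the data, and gave 16 of 28 members. No paired analysis was possible because each condition has 1 library. Of the listed promoter peaks, the strongest of each promoter, the fewest fragments at a summit were 6, and smaller gains are not described by the list.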

Other observations

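CpGs near the start site, which the choice of members did not use, were counted within 150 bp on each side. Members with a new peak had a median of 28.5 there and members without 21, while other promoters had 33 and 6. This contrast is not at a like CpG number, since the whole windows of promoters without a peak had medians of 88 CpGs in the members and 33 in the others. SNHG18 (39) and SNHG27 (31) had more than the median member with a peak, and SNHG11 (2) and SNHG14 (7) had the fewest. In the members with the start site inside a peak the median was 31.5. In the other promoters whose start site lay inside a peak it was 35. Of the 1431 other promoters with a TOP start, 34.2% had a new peak, against 35.0% at a like CpG number.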
